A study of Caenorhabditis elegans with 14 samples.

Results

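The mir-44 family of *C. elegans* comprises the microRNAs miR-44, miR-45, miR-61 and miR-247, grouped because their guide strands share a seed, the short stretch near the 5′ end that pairs with target mRNAs. The members were chosen by name as the 4 guide strands miR-44-3p, miR-45-3p, miR-61-3p and miR-247-3p, out of 214 guide strands and 371 strands in all in the deposited count table. The table comes from small RNA libraries of worms with and without a mutation in *hrpk-1*, which encodes HRPK-1, an RNA-binding protein of the hnRNP K type, and the question was how miRNA levels depend on that protein. Below, the mutants are named by their alleles. The 14 libraries were 2 from *hrpk-1(tm5522)* at L4, 3 each from *hrpk-1(zen17)* and wild type at L4, and 3 each from *hrpk-1(zen17)* and wild type embryos. Every strain had the N2 background and was kept on NGM plates with OP50 bacteria at 20 °C. The *zen17* allele is a CRISPR/Cas9 deletion described as a protein null, and *tm5522* is an in-frame deletion that leaves a truncated HRPK-1 protein and is described as antimorphic. Each allele was represented by a single strain, and *tm5522* was sequenced at L4 only. RNA came from whole animals, so for every level below, fewer cells that make a miRNA and less of it per cell cannot be told apart.

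A miRNA hairpin yields a guide strand, which is loaded into Argonaute and directs repression, and a passenger or star strand (miR*), most of which is degraded. Members of a family that share a seed are able to act on overlapping sets of targets. In worms, *mir-61* is known as a target of LIN-12/Notch signalling in vulval precursor cells, where miR-61 represses *vav-1*, and the mir-44 family is known to promote the sperm fate in the hermaphrodite germline.

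The genes lie at 4 places (WBcel235, Ensembl annotation), and in each the guide is the 3p arm. *mir-44* is on chromosome II from 11890023 to 11890118 on the plus strand, with its guide arm from 11890083 to 11890103. *mir-45* is on the same chromosome from 11880944 to 11881039 on the opposite strand, with its guide arm from 11880959 to 11880979. *mir-61* is on chromosome V from 11770060 to 11770156 on the minus strand (guide arm 11770076 to 11770096), and *mir-247* on chromosome X from 4756971 to 4757068 on the plus strand (guide arm 4757031 to 4757052). No member overlaps a protein-coding gene, and *mir-45* overlaps the antisense non-coding RNA ZK930.13. The members other than *mir-45* sit in clusters with other miRNA genes on the same strand. *mir-44* follows *mir-42* and *mir-43*, with gaps of 117 and 15 bases to it. *mir-250* lies 44 bases from *mir-61*, and *mir-797* 40 bases from *mir-247*. *mir-45* has no miRNA gene within 10 kb on its own strand.

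Libraries held between 1919348 and 19762103 miRNA counts, the lowest in wild type embryo replicate 3. Levels are given in ppm of a library's miRNA counts. Groups were compared with edgeR's quasi-likelihood test on counts scaled by TMM, with Benjamini-Hochberg adjustment over all strands tested and a threshold of 0.05, so log2 changes need not equal the ratio of mean ppm. miR-42-3p, of the embryonic mir-35 family, fits the stage labels: it was at 509 to 2461 ppm in the 8 L4 libraries and at 15576 to 29047 ppm in the 6 embryo libraries. The highest L4 value was that of wild type L4 replicate 2, and the next was 1244 ppm in *zen17* L4 replicate 1. The *hrpk-1* genotype cannot be checked in small RNA counts. Nothing in the labels says that replicates came from separate cultures, so p-values measure the spread between these libraries.

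The counts did not tell miR-44-3p from miR-45-3p. In every library miR-45-3p was the higher, by 27 to 208 counts, which is 0.0546% to 0.195% of its count. The reads are therefore taken as shared, values are printed for miR-44-3p, and the pair is treated as 1 distinguishable guide, leaving 3. The excess of miR-45-3p averaged 12.8 ± 3.29 ppm in *tm5522* L4 larvae (SD, n = 2), 8.01 ± 1.96 ppm in *zen17* L4 larvae, 7.17 ± 3.60 ppm in the wild type at L4, 12.2 ± 2.15 ppm in *zen17* embryos and 9.43 ± 4.02 ppm in wild type embryos (SD, n = 3 each). How reads that fit several loci were assigned is not given in the sources used here.

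The family spans a wide range of abundance, with miR-44-3p the most abundant, miR-61-3p next and miR-247-3p the least in every library. miR-44-3p was at 5600 and 7729 ppm in *tm5522* L4 larvae, at 6782, 6566 and 7533 ppm in *zen17* L4 larvae, and at 8245, 12191 and 4918 ppm in the wild type at L4. In embryos it was at 13275, 20115 and 11269 ppm in *zen17* and at 8302, 8426 and 19284 ppm in wild type. Its counts ran from 37013 to 212517 per library, and it ranked between 11 and 23 among the guide strands. The 3 L4 groups overlapped one another, as did the pair of embryo groups. Both mutant L4 groups lay below both embryo groups, while wild type L4 larvae, where replicate 2 was high and replicate 3 low, overlapped both.

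**Figure D1:**
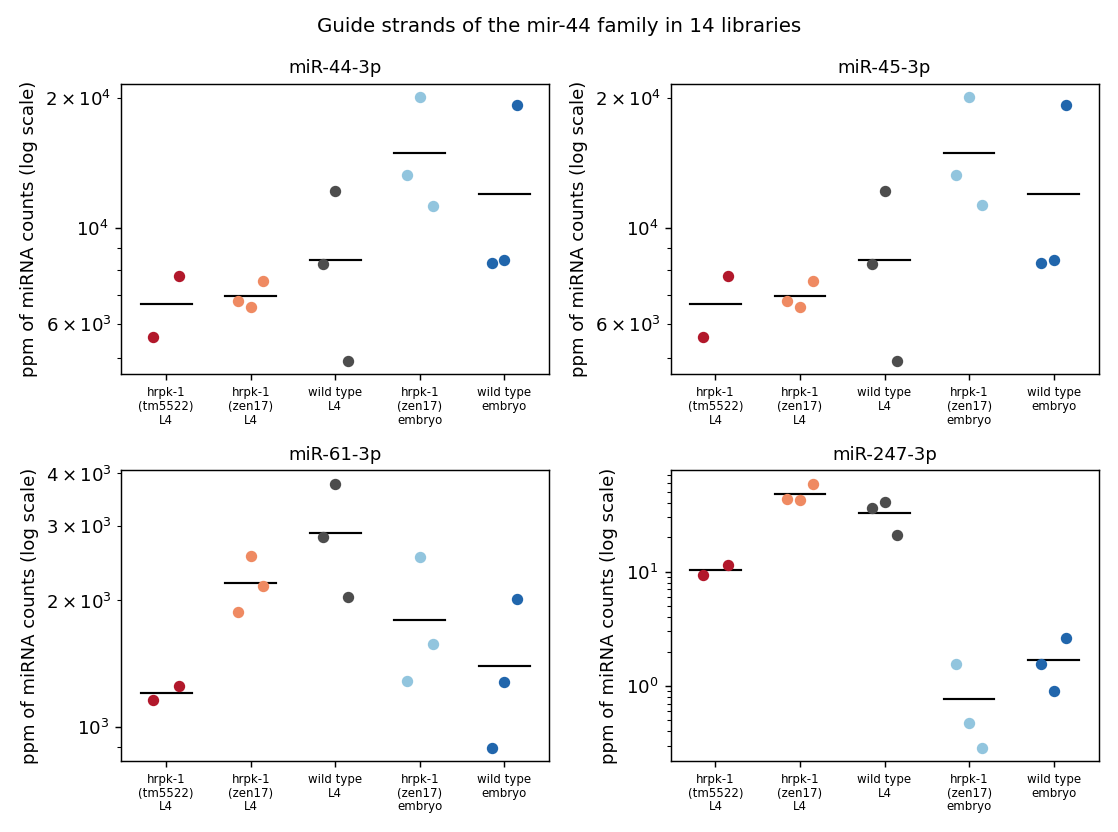
Abundance of the 4 guide strands in each of the 14 libraries, in ppm of miRNA counts on a log axis with a separate range in each panel. Points are libraries, black lines are group means (n = 2 for *tm5522* L4, n = 3 for the other groups). The panels of miR-44-3p and miR-45-3p are nearly the same, miR-61-3p is low in both *tm5522* libraries (1162 and 1253 ppm), and miR-247-3p is at 9.29 ppm or more in every L4 library and at 2.61 ppm or less in every embryo library.

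miR-61-3p was at 1162 and 1253 ppm in *tm5522* L4 larvae, at 1877, 2545 and 2163 ppm in *zen17* L4 larvae, and at 2828, 3785 and 2038 ppm in the wild type at L4. Both *tm5522* libraries lay below all other L4 libraries, and the other L4 groups overlapped. Of all strands, 48.7% did not overlap between *tm5522* and wild type and 59.8% between *tm5522* and *zen17*. In embryos it was at 1289, 2542 and 1573 ppm in *zen17* and at 894, 1280 and 2020 ppm in wild type, and these groups overlapped. Ordered by mean, wild type L4 larvae (2883 ± 875 ppm, SD, n = 3) came first, then *zen17* L4 larvae (2195 ± 335 ppm, SD, n = 3), *zen17* embryos (1801 ± 657 ppm, SD, n = 3), wild type embryos (1398 ± 572 ppm, SD, n = 3) and *tm5522* L4 larvae (1208 ± 64.5 ppm, SD, n = 2). Each group overlapped its neighbour in this order.

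miR-247-3p was a rare strand. It had 104 and 157 counts in *tm5522* L4 larvae (9.29 and 11.4 ppm), 662, 643 and 1101 counts in *zen17* L4 larvae (43.8, 42.5 and 59.3 ppm) and 564, 607 and 412 counts in the wild type at L4 (36.1, 40.7 and 20.8 ppm). The 3 L4 groups did not overlap, with *tm5522* lowest and *zen17* highest. Of all strands, 48.7% did not overlap between *tm5522* and wild type, 59.8% between *tm5522* and *zen17* and 14.9% between *zen17* and wild type. Embryo libraries held 16, 5 and 2 counts in *zen17* and 17, 7 and 5 counts in wild type, all below every L4 library in ppm. The means were 0.771 ± 0.683 ppm and 1.69 ± 0.856 ppm (SD, n = 3 each), and these groups overlapped.

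With the shared reads counted once, the family summed to 7882 ± 1572 ppm in *tm5522* L4 larvae (SD, n = 2), 9204 ± 528 ppm in *zen17* L4 larvae, 11367 ± 4525 ppm in the wild type at L4, 16689 ± 5240 ppm in *zen17* embryos and 13404 ± 6849 ppm in wild type embryos (SD, n = 3 each). The reads of miR-44 and miR-45 made up most of it in every group. Their share was 84.3% ± 2.29 in *tm5522* L4 larvae (SD, n = 2), 75.6% ± 3.39 in *zen17* L4 larvae, 73.6% ± 2.86 in wild type L4 larvae, and 89.2% in both embryo groups (SD 1.74 in *zen17* and 2.07 in wild type, n = 3 each). The share of miR-61 was 15.5%, 23.9% and 26.1% in the 3 L4 groups, in the same order, and 10.8% in each embryo group. miR-247 never reached 1% of the family and was highest, at 0.525%, in *zen17* L4 larvae.

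In *tm5522* L4 larvae against wild type L4 larvae, miR-61-3p and miR-247-3p fell and miR-44-3p did not pass the test. miR-61-3p had a log2 change of -1.24 (SE 0.24, adjusted p = 0.0211), 2.36-fold lower in the mutant. miR-247-3p had one of -1.62 (SE 0.26, adjusted p = 0.0130), 3.08-fold lower. For miR-44-3p the value was -0.28 (SE 0.29, adjusted p = 0.478). Thus 2 of the 3 distinguishable guides were called, both lower. Among all 232 strands tested, 22.4% were called in either direction and 12.1% were called lower (10.3% higher). These 52 calls changed to 110 of 227 strands with no wild type L4 replicate 2, to 25 of 225 with no replicate 1 and to 21 of 228 with no replicate 3. Libraries of both groups did not overlap for these 2 guides, where 48.7% of all strands did not overlap. The median log2 change over all strands was -0.09. Over the 3 guides it was -1.24, which is the value of miR-61-3p itself. The call of miR-61-3p was lost on total miRNA counts (adjusted p = 0.103), with no wild type L4 replicate 1 (0.0693) or replicate 3 (0.0731) and without *tm5522* L4 replicate 1 (0.193) or replicate 2 (0.140), at log2 changes from -1.30 to -1.09. The call of miR-247-3p was lost without *tm5522* L4 replicate 1 (-1.39, adjusted p = 0.157) or replicate 2 (-1.78, adjusted p = 0.0912), fits that leave a lone mutant library and in which no strand at all was called.

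In *zen17* L4 larvae against wild type L4 larvae, 0 of the 3 guides passed the threshold. None of the 228 strands did with edgeR and TMM, a share of 0%; 33 had an unadjusted p under 0.05. On total counts edgeR called 3, DESeq2 called 9, and with no wild type L4 replicate 2 edgeR called 13. miR-44-3p had a log2 change of -0.11 (SE 0.26, adjusted p = 0.859) and miR-61-3p one of -0.30 (SE 0.22, adjusted p = 0.520). miR-247-3p was at 0.72 (SE 0.29, unadjusted p = 0.0335, adjusted p = 0.283). It lay higher in all 3 *zen17* libraries than in any wild type library, and 14.9% of all strands did not overlap in this comparison.

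The alleles were also compared directly, because both comparisons above share the same wild type libraries. Relative to *zen17*, *tm5522* L4 larvae had less miR-61-3p and less miR-247-3p. The log2 change of miR-247-3p was -2.34 (SE 0.31, adjusted p = 0.000465), 5.07-fold lower in *tm5522* and the 12th lowest of 229 strands tested. That of miR-61-3p was -0.95 (SE 0.20, adjusted p = 0.00526), 1.93-fold lower. miR-44-3p was at -0.17 (SE 0.24, adjusted p = 0.569). Again 2 of 3 guides were called, both lower, where 38.4% of all strands were called and 20.5% were called lower. Neither guide's libraries overlapped, as for 59.8% of all strands. The call of miR-247-3p held in all 13 alternatives. With a library left out, that of miR-61-3p was lost without *tm5522* L4 replicate 1 (-0.82, adjusted p = 0.0559) or replicate 2 (-0.90, adjusted p = 0.0576).

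**Figure D2:**
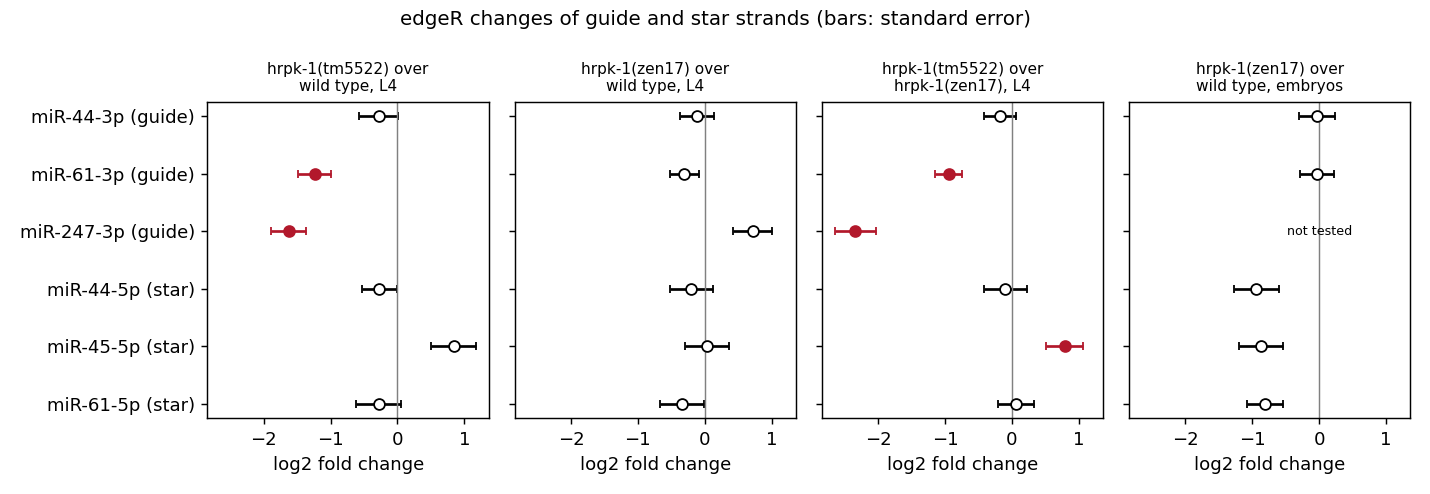
edgeR log2 changes of the family's guide strands and star strands in 4 comparisons, with the SE as bars. Filled red points passed the threshold of 0.05 and open points did not, and miR-247-3p was too rare to be tested in embryos. miR-61-3p and miR-247-3p are below 0 and past the threshold in both panels with *tm5522*, where miR-44-3p lies between -0.28 and -0.17.

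In *zen17* embryos against wild type embryos, miR-44-3p and miR-61-3p each had a log2 change of -0.04 (SEs 0.27 and 0.25, adjusted p = 0.909 for both). miR-247-3p had too few counts to be tested, so 0 of the 2 guides tested were called, where 17.9% of the 201 strands were (7.46% lower), and both overlapped, where 18.4% of strands did not. The 36 calls over all strands dropped to between 17 and 21 without any of wild type embryo replicates 1 and 2 and *zen17* embryo replicates 1 and 3. Without a filter on low counts, miR-247-3p was at -1.35 (adjusted p = 0.247). The scale matters for so small a change. On total miRNA counts the median of all strands moved to 0.31 from -0.08, and miR-44-3p was then at 0.31 and miR-61-3p at 0.37, both still short of the threshold.

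Between stages the members parted. In wild type L4 larvae against wild type embryos, miR-247-3p rose and miR-61-3p rose, while miR-44-3p had a negative value that did not pass. The log2 change was 4.02 for miR-247-3p (SE 0.41, adjusted p = 5.01e-06), 16.3-fold higher at L4. It was 0.86 for miR-61-3p (SE 0.28, adjusted p = 0.0165), 1.81-fold higher, and -0.69 for miR-44-3p (SE 0.33, adjusted p = 0.0787). Of all 230 strands tested, 72.2% were called, 40.9% higher and 31.3% lower, so calls are common here. Libraries of the stages did not overlap for miR-247-3p and miR-61-3p, nor for 64.3% of all strands. miR-247-3p passed the filter on low counts through the L4 libraries alone. The median of all strands was 0.38 on the TMM scale, 0.29 with RLE size factors and 0.58 on total counts. Relative to the TMM median, miR-61-3p was at 0.48 and miR-44-3p at -1.07. The call of miR-61-3p was lost on total counts (1.04, adjusted p = 0.154), without wild type embryo replicate 1 (0.74, adjusted p = 0.0829) or replicate 2 (0.93, adjusted p = 0.0672) and with no wild type L4 replicate 3 (0.92, adjusted p = 0.0565). miR-44-3p passed with DESeq2 (-0.78, adjusted p = 0.0123), with a minimum of 100 counts (-0.86, adjusted p = 0.0273), in a fit over all 14 libraries (-0.64, adjusted p = 0.0338) and with the shared reads counted once (-0.84, adjusted p = 0.0457).

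In *zen17* L4 larvae against *zen17* embryos, miR-247-3p rose by 5.89 on the log2 scale (SE 0.60, adjusted p = 2.22e-06), and miR-44-3p fell, with a log2 change of -1.06 (SE 0.32, adjusted p = 0.00961). miR-247-3p again passed the filter through the L4 libraries, the embryos holding 16, 5 and 2 counts, and its value was 7.27 without *zen17* embryo replicate 1. miR-61-3p was at 0.27 (SE 0.28, adjusted p = 0.400), and passed at 0.58 (adjusted p = 0.0341) without *zen17* embryo replicate 2. In this comparison 72.7% of the 238 strands were called, 34% higher and 38.7% lower, and 76.1% had no overlap, among them miR-247-3p and miR-44-3p. Their median over all strands was -0.27 with TMM, 0.02 with RLE size factors and -0.19 on total counts. Relative to the TMM median, miR-44-3p was at -0.80. The difference of the *zen17* change between stages was tested as an interaction, in which 0 of the 3 guides and 4.8% of 250 strands were called. It was -0.19 for miR-44-3p (SE 0.40, adjusted p = 0.862), -0.40 for miR-61-3p (SE 0.35, adjusted p = 0.608) and 1.98 for miR-247-3p (SE 0.71, adjusted p = 0.130). For miR-247-3p it passed with DESeq2 (2.24, adjusted p = 0.0167) and without *zen17* embryo replicate 1 (3.16, adjusted p = 0.00572), the library with 16 counts.

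Ratios between members within a library need no scaling. The log2 ratio of miR-61-3p to miR-44-3p was -2.45 ± 0.25 in *tm5522* L4 larvae (SD, n = 2), -1.67 ± 0.27 in *zen17* L4 larvae, -1.50 ± 0.21 in wild type L4 larvae and -3.06 in both embryo groups (SD 0.27 in *zen17* and 0.30 in wild type, n = 3 each). The *tm5522* libraries did not overlap either of the other L4 groups. Wild type L4 larvae were higher than wild type embryos by 1.56, and *zen17* L4 larvae than *zen17* embryos by 1.39, with no overlap in either case. The log2 ratio of miR-247-3p to miR-44-3p differed by -1.33 between *tm5522* and wild type L4 larvae, by -2.14 between *tm5522* and *zen17* and by 0.80 between *zen17* and wild type L4 larvae, with no overlap in any of these. How often ratios of other strands do not overlap was not computed. For levels of single strands the share without overlap was 48.7%, 59.8% and 14.9% in these 3 comparisons. It was 64.3% between stages in wild type and 76.1% in *zen17*. In the family of 24 exact two-sided permutation tests of such ratios the smallest adjusted p was 0.282. The smallest raw p that the design allows is 0.1 for 3 libraries against 3 and 0.2 for 2 against 3.

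The star strands were told apart by the counts, unlike the guides, and differed between the *mir-44* and *mir-45* loci. miR-44-5p had 98 and 92 counts in *tm5522* L4 larvae (8.75 and 6.68 ppm), 69, 197 and 121 counts in *zen17* L4 larvae (4.57, 13.0 and 6.51 ppm) and 145, 184 and 130 counts in the wild type at L4 (9.28, 12.3 and 6.58 ppm). In embryos it was at 101, 111 and 130 ppm in *zen17* and at 125, 184 and 170 ppm in wild type. Every embryo library was above every L4 library, and the L4 groups overlapped. Between stages, 64.3% of all strands in wild type and 76.1% in *zen17* did not overlap. Its log2 change was -4.41 in wild type L4 larvae against embryos (SE 0.39, adjusted p = 2.63e-06), 21.3-fold lower at L4, and -4.04 in *zen17* (SE 0.35, adjusted p = 4.2e-07). In these comparisons 72.2% and 72.7% of all strands were called, 31.3% and 38.7% lower. The strand thus fell with stage in both genotypes, and the interaction was 0.61 (SE 0.45, adjusted p = 0.529).

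miR-45-5p was at 9.91 and 12 ppm in *tm5522* L4 larvae, at 4.43, 9.33 and 4.68 ppm in *zen17* L4 larvae, and at 4.99, 10.7 and 3.69 ppm in the wild type at L4. The *tm5522* libraries lay above all *zen17* libraries and overlapped wild type, where replicate 2 was high. Between *tm5522* and *zen17*, 59.8% of all strands did not overlap. In embryos it was at 10.4, 10.4 and 12.2 ppm in *zen17* and at 11.7, 15.3 and 17.7 ppm in wild type. Its log2 fold change with stage was -1.59 in wild type (SE 0.38, adjusted p = 0.00260) and -1.02 in *zen17* (SE 0.33, adjusted p = 0.0138). The first was lost on total counts (-1.20, adjusted p = 0.138) and the second in 8 of 14 alternatives. Over all strands, 31.3% and 38.7% were called lower at L4. Between *tm5522* and *zen17* miR-45-5p was higher by 0.79 (SE 0.27, adjusted p = 0.0441), where 17.9% of all strands were called higher. That call was lost in 7 of 13 alternatives. The losses included the fits with no *zen17* L4 replicate 1 (0.64, adjusted p = 0.183) or replicate 3 (0.63, adjusted p = 0.150) and without *tm5522* L4 replicate 2 (0.75, adjusted p = 0.125). Against wild type L4 larvae it was at 0.84 (SE 0.33, adjusted p = 0.112), and passed with no wild type L4 replicate 2 (1.07, adjusted p = 0.00875).

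The share of miR-44-5p among the star reads of the pair separated the stages. It was 46.9% and 35.8% in *tm5522* L4 larvae, 50.7% to 58.3% in *zen17* L4 larvae and 53.6% to 65.0% in wild type L4 larvae. In embryos it was 90.6% to 91.4% in *zen17* and 90.6% to 92.3% in wild type, about the same in all 6 libraries. The log2 ratio of miR-44-5p to miR-45-5p differed by -2.77 between wild type L4 larvae and wild type embryos and by -3.03 between *zen17* L4 larvae and *zen17* embryos. It differed by -1.15 between *tm5522* and wild type L4 larvae and by -0.84 between *tm5522* and *zen17* L4 larvae. None of these groups overlapped, and again the share over ratios of other strands was not computed. This ratio and that of miR-61-3p to miR-250-3p were chosen after seeing the data and belong to the 24 tests above.

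**Figure D3:**
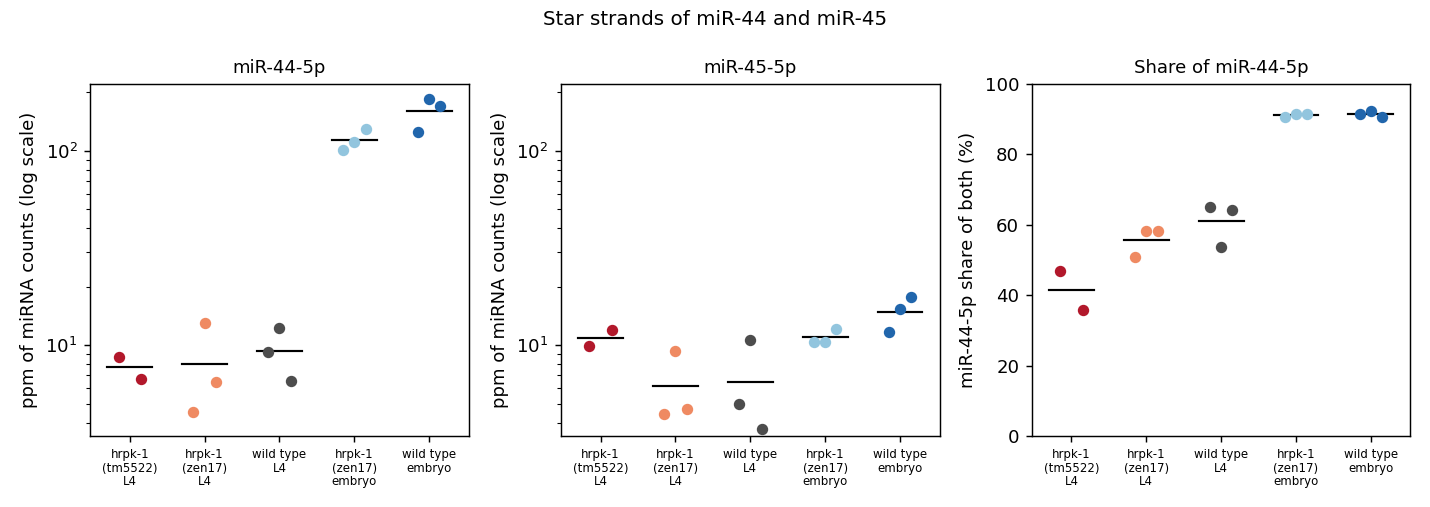
Star strands miR-44-5p and miR-45-5p in each library, in ppm of miRNA counts on a shared log axis, and the share of miR-44-5p among the counts of both, in percent. Points are libraries and black lines group means (n = 2 for *tm5522* L4, n = 3 for the other groups). miR-44-5p is at 101 ppm or more in every embryo library and at 13.0 ppm or less in every L4 library, and its share is above 90.5% in every embryo library and at 65.0% or less in every L4 library.

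miR-61-5p was at 22.8 and 26.4 ppm in *tm5522* L4 larvae, at 22.2, 18.3 and 24.4 ppm in *zen17* L4 larvae and at 21.7, 51.1 and 20.5 ppm in the wild type at L4. The groups overlapped. Unlike its guide, this strand was not called against either L4 group, with log2 changes of -0.28 against wild type (SE 0.34, adjusted p = 0.543) and 0.06 against *zen17* (SE 0.27, adjusted p = 0.855). In *zen17* embryos the star strands miR-44-5p, miR-45-5p and miR-61-5p had values of -0.94, -0.87 and -0.82 against wild type embryos, with adjusted p-values of 0.0813, 0.0865 and 0.0576. Each of them passed in 1 or more of 14 alternatives. miR-247-5p had 0 counts in all 6 embryo libraries, which allows up to 0.275 to 1.56 ppm, and between 0 and 4 counts in each L4 library, too few for a test.

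The guide to star ratio of each miRNA was compared with limma on log2 ratios. Between stages in wild type, the ratio of miR-44 was higher at L4 than in embryos by 3.63 (SE 0.51, adjusted p = 0.000424), 12.3-fold, and that of miR-61 by 1.46 (SE 0.47, adjusted p = 0.0233). That of miR-45 was at 0.86 (SE 0.48, adjusted p = 0.148). Of 82 hairpins tested, 56.1% were called. In *zen17*, miR-44 was higher by 2.89 (SE 0.53, adjusted p = 0.00472), with miR-61 at 0.68 (adjusted p = 0.192) and miR-45 at -0.13 (adjusted p = 0.833), and 38.3% of 81 hairpins were called. The miR-44 and miR-45 ratios share their guide reads, so they differ through their star strands alone. Those guide reads may come from either locus, so neither value is the ratio of a single hairpin. The miR-61 call in wild type was lost without wild type embryo replicate 1 (adjusted p = 0.0518) or replicate 2 (0.0598) and with no wild type L4 replicate 1 (0.0914) or replicate 3 (0.0934).

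Between alleles the miR-61 ratio was lower in *tm5522* than in *zen17* L4 larvae, with a log2 difference of -1.04 (SE 0.35, adjusted p = 0.0369), where 48.6% of 72 hairpins were called. Among the fits with a library left out or another filter, this call was lost without any of *zen17* L4 replicate 1 (adjusted p = 0.0580) or replicate 3 (0.0698), *tm5522* L4 replicate 1 (0.0983) or replicate 2 (0.148), and with a minimum mean of 1 count (0.114). miR-45 was at -0.99 (adjusted p = 0.0835), and passed with no *zen17* L4 replicate 2 (-1.37, adjusted p = 0.00755), and miR-44 at -0.15 (adjusted p = 0.856). Against wild type L4 larvae, *tm5522* had values of -1.0 for miR-61 (adjusted p = 0.144), -1.17 for miR-45 (adjusted p = 0.0809) and -0.02 for miR-44 (adjusted p = 0.979), so 0 of 3 passed, where 35.4% of 79 hairpins did. Those of miR-45 (-1.29, adjusted p = 0.0198) and miR-61 (-1.21, adjusted p = 0.0247) passed with no wild type L4 replicate 2. In *zen17* against wild type, limma called 0 of 63 hairpins in embryos and 0 of 79 at L4, and none of the family's 3 had an unadjusted p under 0.05.

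Of the miRNAs clustered with a member, both beside *mir-44* were higher in embryos. Over all strands, 31.3% were called lower and 40.9% higher at L4 than in embryos in wild type. In *tm5522*, 12.1% were called lower against wild type L4 larvae and 20.5% against *zen17*. miR-42-3p, a member of the mir-35 family required for embryonic development, was at 688 and 767 ppm in *tm5522* L4 larvae, at 1244, 981 and 1151 ppm in *zen17* L4 larvae and at 686, 2461 and 509 ppm in the wild type at L4. In wild type L4 larvae against embryos it fell, with a log2 change of -4.39 (SE 0.51, adjusted p = 1.48e-05). miR-43-3p, of the mir-2 family, fell likewise, with -4.63 (SE 0.51, adjusted p = 9.33e-06; -3.88 without wild type embryo replicate 3). These stand beside -4.41 for the star strand miR-44-5p and -0.69 for the shared guide miR-44-3p; the differences between strands were not tested. In *tm5522* L4 larvae miR-43-3p was lower than in wild type, with -2.29 (SE 0.50, adjusted p = 0.0298), and lower than in *zen17*, with -2.38 (SE 0.43, adjusted p = 0.00255). It had 6 and 13 counts there, 66, 53 and 59 in *zen17* and 48, 99 and 42 in wild type. miR-43-3p thus passed the filter on low counts through the *zen17* or wild type libraries, where it was higher. The call against wild type was lost with no wild type L4 replicate 3 (-2.41, adjusted p = 0.0583) and, like all others there, without either *tm5522* library. Neither miR-44 strand passed in those comparisons. miR-42-3p was lower in *tm5522* than in *zen17* L4 larvae, with -0.75 (SE 0.27, adjusted p = 0.0478). That call was lost in 9 of 13 alternatives. Relative to wild type L4 larvae, miR-42-3p was at -0.59 in *tm5522* (SE 0.51, adjusted p = 0.422).

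**Figure D4:**
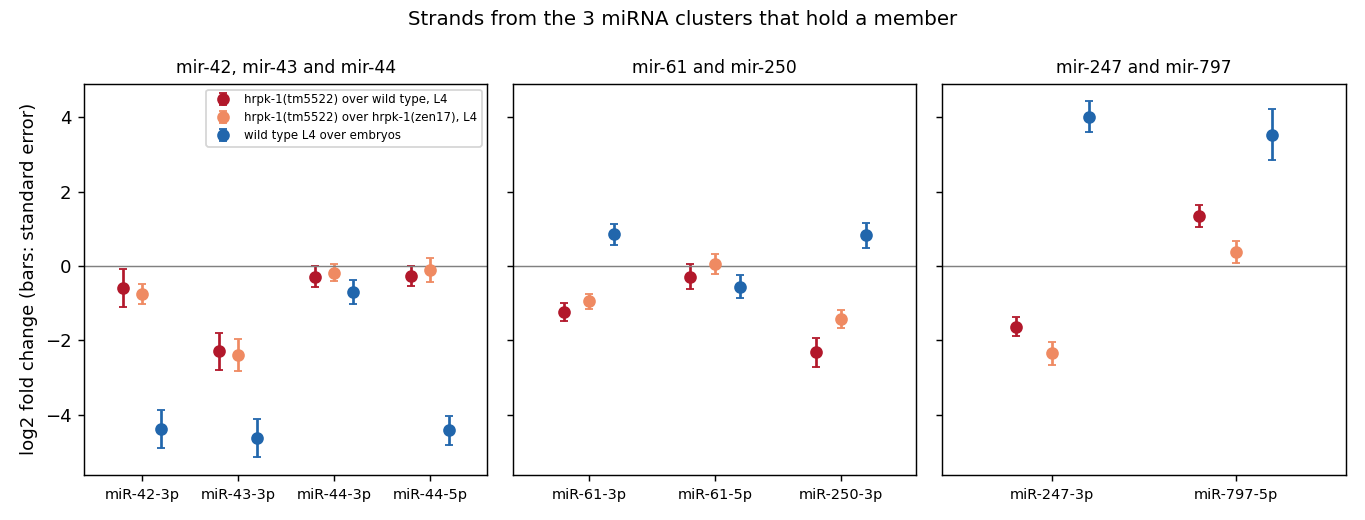
edgeR log2 changes, with the SE as bars, for strands of the 3 clusters that hold a family member: *mir-42*, *mir-43* and *mir-44*; *mir-61* and *mir-250*; and *mir-247* and *mir-797*. Dark red points are *tm5522* over wild type L4 larvae, orange points *tm5522* over *zen17* L4 larvae, and blue points wild type L4 larvae over wild type embryos. In the *tm5522* comparisons miR-61-3p and miR-250-3p are both below 0, miR-247-3p is below 0 (-1.62 and -2.34) and miR-797-5p above it (1.35 and 0.37).

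miR-250-3p, of the mir-2 family and encoded beside *mir-61*, was at 76.4 and 57.8 ppm in *tm5522* L4 larvae, at 168, 193 and 146 ppm in *zen17* L4 larvae and at 415, 271 and 274 ppm in the wild type at L4. None of these groups overlapped. Of all strands, 48.7% did not overlap between *tm5522* and wild type, 59.8% between *tm5522* and *zen17* and 14.9% between *zen17* and wild type. miR-250-3p fell with miR-61-3p in *tm5522*, with a log2 change of -2.32 against wild type (SE 0.40, adjusted p = 0.0152) and -1.43 against *zen17* (SE 0.24, adjusted p = 0.00202). In *zen17* against wild type L4 larvae it was at -0.91 and did not pass (SE 0.31, adjusted p = 0.212). The log2 ratio of miR-61-3p to miR-250-3p differed by 1.03 between *tm5522* and wild type L4 larvae without overlap (two-sided exact permutation p = 0.2, the lowest that 2 libraries against 3 can give). In wild type L4 larvae against embryos miR-250-3p was at 0.82 (adjusted p = 0.0489), near the 0.86 of miR-61-3p, a call lost in 10 of 14 alternatives.

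miR-797-5p, encoded beside *mir-247*, went the other way from its neighbour in *tm5522* against wild type L4 larvae. It had 218 and 363 counts in *tm5522* L4 larvae (19.5 and 26.4 ppm), 284, 198 and 310 counts in *zen17* L4 larvae (18.8, 13.1 and 16.7 ppm) and 154, 208 and 93 counts in the wild type at L4 (9.86, 13.9 and 4.71 ppm). Against wild type it rose by 1.35 (SE 0.30, adjusted p = 0.0306), where miR-247-3p was at -1.62; the call was lost in 7 of 13 alternatives, at values from 1.11 to 1.65, among them total counts (adjusted p = 0.0918) and the fits with no wild type L4 replicate 1 (0.0566) or replicate 3 (0.0886). Against *zen17* it was at 0.37 (adjusted p = 0.337). In *zen17* against wild type L4 larvae miR-797-5p was at 0.97 (SE 0.33, adjusted p = 0.212) and miR-247-3p at 0.72, and neither passed. With stage, both neighbours were higher at L4 in wild type, miR-797-5p by 3.54 (SE 0.69, adjusted p = 0.000658). Wild type embryos held 1, 2 and 7 counts of miR-797-5p, which passed the filter through the L4 libraries alone. Its value was 2.73 without wild type embryo replicate 1 and 5.10 without replicate 3, past the threshold in both.

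Likeness to other guides was described by the Pearson correlation of TMM log2 CPM over the 14 libraries, among 113 other guides whose mean reached 100 counts. The libraries differ in stage and depth, so these values carry no test. miR-44-3p was most like miR-62-3p, a mirtron product (r = 0.917), miR-255-3p (r = 0.914) and miR-2-3p (r = 0.880), all with higher mean ppm in embryos than at L4. Its cluster neighbours miR-43-3p and miR-42-3p came 4th (r = 0.868) and 9th (r = 0.835). miR-61-3p was most like miR-75-3p (r = 0.857), miR-232-3p (r = 0.823) and miR-252-5p (r = 0.815), with miR-250-3p 5th (r = 0.792). miR-247-3p was most like miR-358-3p (r = 0.952), miR-357-3p (r = 0.946) and miR-240-3p (r = 0.945), and miR-797-5p came 43rd (r = 0.735). Among the members themselves r was -0.02 between miR-44-3p and miR-61-3p, -0.66 between miR-44-3p and miR-247-3p and 0.57 between miR-61-3p and miR-247-3p.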

How the data were processed

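Small RNAs from 14 samples were size selected on gels, built into NEXTflex libraries and sequenced by the authors. They deposited counts of reads for each mature strand, unnormalized, labelled as guide or star. The submitters' processing notes name cutadapt 1.15 and Bowtie. The genome build, miRNA annotation and handling of multi-mapping reads are not given in the sources used here. Reads that fit both miR-44-3p and miR-45-3p were taken to enter the table under each name (0.492% to 2.01% of a library's total for each). A fit with them counted once was an alternative. Their double entry could not be checked. If such reads had been divided between the names, the family sums with shared reads counted once would be too low.

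All other values were computed from these counts. The test was edgeR's quasi-likelihood F test (edgeR 4.0.16, R 4.3.3, TMM), fitted to the compared groups alone. A prior count of 2 was used only in the log2 CPM behind the correlations. A strand was tested if it reached 10 counts in a number of libraries equal to the size of the smaller group, or in 3 of 12 for the interaction. Standard errors were derived from the test statistics. Guide to star ratios used limma 3.58.1 with a pseudocount of 0.5 and a mean of at least 10 counts of each strand. Ratios of 2 strands were compared with exact permutation tests (scipy 1.17.1). Overlap was judged in ppm. The scripts were tested on simulated data. Other settings tried were scaling by RLE or by total counts, DESeq2 1.42.0, other filters and pseudocounts, 1 fit to all 14 libraries, a block for replicate number, and leaving out each library. A count of 0 allows up to 3 counts, which is 1.56 ppm in wild type embryo replicate 3 and 0.152 to 0.430 ppm elsewhere; this covers counting error only. Named strands are the 4 guides, their star strands, guides of miRNA genes within 10 kb on the same strand, and for each distinguishable guide the 3 guides most like it. Members, lists and tests were chosen with earlier results of these data known. Positions are from Ensembl release 115. No sequences are shown, and the shared seed is taken from the family's definition. The extraction notes speak of mixed stage animals, while the labels give embryos or L4 larvae; groups follow the labels.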

Additional observations from a re-analysis of the deposited data

Results flagged for a closer look

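The alleles differed from each other at L4 for 3 strands of the family, in a direct edgeR test of *tm5522* against *zen17*: the log2 fold change was -2.34 for miR-247-3p (lower in *tm5522*), -0.95 for miR-61-3p (lower in *tm5522*) and 0.79 for miR-45-5p (higher in *tm5522*). In that comparison 38.4% of all 229 strands were called. The call of miR-247-3p held in all 13 alternatives, while that of miR-61-3p was lost in 3 of them and that of miR-45-5p in 7.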

How the results depend on the processing

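Of 991 values of single strands and hairpins under alternatives, over 78 results, 853 kept their direction and their side of the threshold, 71 no longer passed it, 21 newly passed it and 46 changed direction. The number of the 3 distinguishable guides of the miR-44 family called in *tm5522* against wild type L4 larvae was 2, 1 on total counts and 0 to 2 with a library left out. Against *zen17* it was 2, 1 with a replicate block (miR-61-3p lost, adjusted p = 0.118), and 1 to 2 with a library left out. For wild type L4 larvae against embryos it was 2, 1 on total counts, 3 in 4 alternatives (DESeq2, at least 100 counts, the fit over all libraries, and shared reads counted once) and 1 to 2 with a library left out. For the interaction it was 0, 1 with DESeq2 and 0 to 1 with a library left out. Hairpins with a changed guide to star ratio numbered 0 of 3 in *tm5522* against wild type (0 to 2 with a library left out). Against *zen17* they numbered 1, and 0 to 2 with a library left out. That number was 0 with a minimum mean of 1 count and 0 with a replicate block, where miR-61 had an adjusted p of 0.129. With stage they numbered 2 in wild type (1 to 2 with a library left out) and 1 in *zen17*. A minimum mean of 1 count let in miR-247 as a further hairpin, and the calls were then 3 in wild type and 2 in *zen17*. The added call was miR-247 in both, since miR-45 passed in no alternative of either, nor miR-61 in any of *zen17*. The star strand of miR-247 had 0 counts in every embryo library and at most 4 at L4, too few to rely on. Counts of calls over all strands moved from 36 to 17 on total counts in *zen17* embryos (17 to 43 with a library left out), from 0 to 3 on total counts and 9 with DESeq2 in *zen17* at L4 (0 to 13 with a library left out), from 52 to 80 with DESeq2 and 81 in the fit over all libraries in *tm5522* against wild type (0 to 110 with a library left out), from 88 to 39 in that fit and 53 with a replicate block against *zen17*, and from 12 to 19 with DESeq2 for the interaction.

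Directions changed mostly where a value was near 0, and the cause was not tested. In *zen17* embryos, miR-44-3p and miR-45-3p were at 0.31 on total counts, 0.0042 and 0.0043 without a count filter, 0.091 in the fit over all libraries and -0.15 to 0.071 with a library left out, and miR-61-3p at 0.37, 0.0046, 0.11 and -0.16 to 0.065. At L4, miR-45-5p in *zen17* was at -0.067 with RLE size factors, -0.066 on total counts, -0.067 with DESeq2 or shared reads counted once, -0.018 without a filter, -0.0098 over all libraries and -0.31 to 0.22 with a library left out. In *tm5522* against wild type, leaving out a library gave -0.54 to 0.025 for miR-44-3p, -0.54 to 0.027 for miR-45-3p and -0.81 to 0.012 for miR-42-3p. Against *zen17* it gave -0.32 to 0.11 for both guides, -0.35 to 0.31 for miR-44-5p (0.010 without a filter, 0.011 over all libraries) and -0.080 to 0.23 for miR-61-5p (-0.028 with at least 100 counts). miR-61-5p ran from -0.57 to 0.093 with stage in *zen17*, and its interaction was -0.089 on total counts. Guide to star ratios ran, with a library left out, from -0.19 to 0.59 for miR-44, -0.39 to 0.20 for miR-45 and -0.19 to 0.24 for miR-61 in *zen17* at L4, from -0.44 to 0.41 for miR-44 in *tm5522* against wild type and -0.61 to 0.28 against *zen17*, and from -0.39 to 0.25 for miR-45 with stage in *zen17*. In *zen17* embryos the log2 ratio of miR-61-3p to miR-44-3p ran from -0.11 to 0.17, that of miR-44-5p to miR-45-5p from -0.14 to 0.032 and that of miR-61-3p to miR-250-3p from -0.069 to 0.50, which with stage in wild type ran from -0.21 to 0.37. Replicate numbers did not pair the libraries (correlations of deviations from -0.36 to 0.12).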
